A study of Mus musculus with 4 samples.

Results

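Transcripts were examined of 10 genes that mark the path from the oligodendrocyte precursor cell to the newly committed oligodendrocyte. The cells were captured as astrocytes with beads, from the cortex of mice that differ in a conditional deletion of Ezh2. Ezh2 encodes the histone methyltransferase of Polycomb Repressive Complex 2. The 10 genes were Pdgfra, Cspg4, Ptprz1, Olig1, Olig2, Sox10, Myrf, Gpr17, Enpp6 and Bcas1. They were taken by gene symbol from the count table, where each has 1 row among 29224 genes. RNA was sequenced from cells of the cerebral cortex of P5 mice (postnatal day 5) that magnetic beads against ACSA-1 had captured, an epitope of the glutamate transporter GLAST on the astrocyte surface. Of the libraries, 2 came from Ezh2 f/f mice (Ezh2fl/fl in the submitters' design text), which carry the floxed alleles. The other 2 came from Ezh2 cKO mice (Ezh2-cKO-Aldh1l1), in which a Cre recombinase driven by the astrocyte gene Aldh1l1 acts on the same floxed alleles. Both groups share the age, the tissue and the bead capture, and the sources used here do not say whether Ezh2 f/f mice carried Cre or whether animals were pooled. Nothing says that the 2 libraries of a group came from separate animals either, so the p-values measure the spread between these libraries only.

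Oligodendrocyte precursors arise from ventricular zone progenitors, spread through the brain and divide in response to PDGF-A, which they sense through the receptor PDGFRα. The bHLH factors OLIG1 and OLIG2 and the HMG-box factor SOX10 are present from the precursor onwards, and MYRF switches on the myelin genes once a cell leaves the cycle. Between precursor and myelinating cell lies a short-lived committed or premyelinating stage, which is known for GPR17, ENPP6 and BCAS1. In the rodent cortex these stages overlap with astrocyte development in the first postnatal weeks.

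All 10 genes were higher in Ezh2 cKO than in Ezh2 f/f libraries. The genes for the committed stage rose most, with Enpp6, Bcas1 and Gpr17 16.9-fold or more above their Ezh2 f/f means. The precursor genes Pdgfra and Cspg4 rose 1.86-fold and 1.74-fold, and Olig2 rose 1.53-fold. All 10 passed an adjusted p of 0.05 in edgeR's quasi-likelihood test and 0 were lower, where 34.7% of the 16793 genes tested were higher and 33.6% were lower. Enpp6 passed the filter on low counts only through the Ezh2 cKO libraries, where it is high, so its call is no support. The other 9 pass this filter in Ezh2 f/f alone, and each of them was called higher. The counts and the median that follow include Enpp6. Of the 10 genes, 7 were called higher with at least a 2-fold change, which 19.0% of all genes tested were. Their median log2 fold change was 1.64, against 0.015 over all genes tested. In 10 of 10 genes both Ezh2 cKO libraries lay above both Ezh2 f/f libraries, as 42.8% of all genes tested did. The sum of the 10 genes' FPKM (counts scaled to gene length and to the library total) was 57.1 and 57.2 in Ezh2 f/f, against 220 and 197 in Ezh2 cKO.

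**Figure D1:**
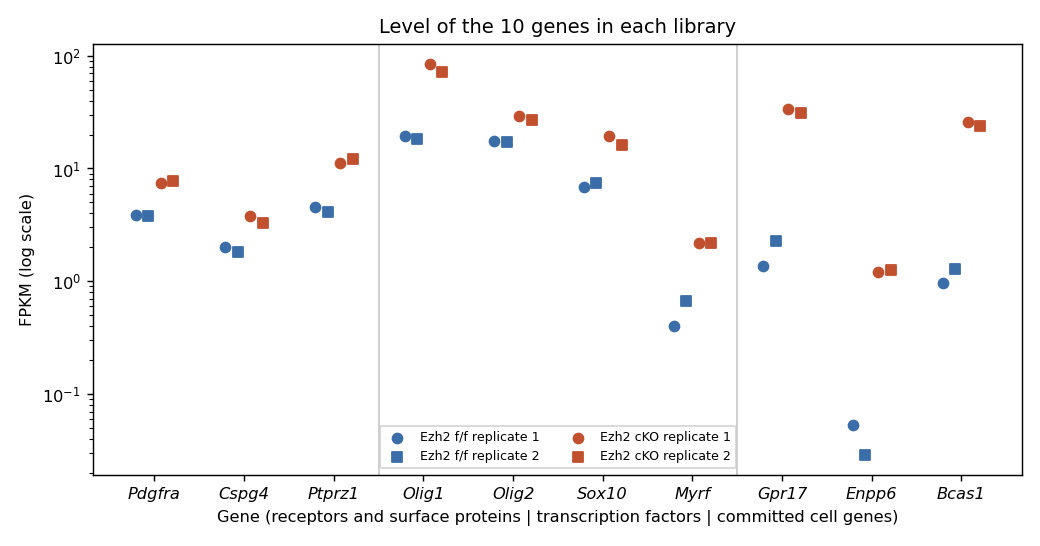
FPKM (log axis) of the 10 genes in each of the 4 libraries, with Ezh2 f/f in blue and Ezh2 cKO in red, circles for replicate 1 and squares for replicate 2, and vertical lines between the receptors and surface proteins, the transcription factors and the committed cell genes. In each gene both red points lie above both blue points, and the gap is widest for Gpr17, Enpp6 and Bcas1.

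Total counts ran from 16273308 to 17522152 per library, at which 3 counts, the limit that a count of 0 allows, amount to 0.171 to 0.184 CPM, and such limits cover counting error only. CPM below divide a count by the library total after TMM scaling, every fold change sets Ezh2 cKO over Ezh2 f/f, and p-values were adjusted over all genes tested (Benjamini-Hochberg). Ezh2 itself (chromosome 6, 47507073 to 47572275, minus strand) had 434 and 327 counts in Ezh2 f/f, against 211 and 164 in Ezh2 cKO (log2 fold change -1.11, SE 0.16, adjusted p = 3.26e-05). Of the genes that define the sorted cell type, Aldh1l1 was at 16.2 and 17.0 FPKM in Ezh2 f/f, against 16.4 and 15.3 in Ezh2 cKO, whereas Slc1a3, which encodes GLAST, was at 11.1 and 11.6, and 36.1 and 36.5. Aqp4 was at 0.751 and 0.513 FPKM in Ezh2 f/f and at 13.7 and 15.2 in Ezh2 cKO. The 12 astrocyte markers listed summed to 131 and 142 FPKM in Ezh2 f/f and to 625 and 566 in Ezh2 cKO, so the markers of the sorted cell type were higher with the genotype too, and their part in the rise of the 10 genes was not tested. The 12 neuron markers summed to 2288 FPKM or more in every library, so transcripts of neurons were abundant in all of them. In bulk RNA, a change in the share of a cell type and a change in RNA per cell cannot be told apart.

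The sequences just upstream of the genes with the smallest and the largest rise, Olig2 and Enpp6, and of the precursor receptor gene Pdgfra are shown here to compare the DNA they carry. CG-rich promoters of developmental genes are the usual sites of Polycomb repression in many tissues. Each stretch holds the 250 bases before the transcription start as given by RefSeq on GRCm38.p6, 5′ to 3′ on the gene's own strand, with each CG dinucleotide in capitals. The table gives 5 of the 10 genes, which are these 3, Cspg4 and Ptprz1.
Pdgfra, chr5:75152001-75152250, plus strand: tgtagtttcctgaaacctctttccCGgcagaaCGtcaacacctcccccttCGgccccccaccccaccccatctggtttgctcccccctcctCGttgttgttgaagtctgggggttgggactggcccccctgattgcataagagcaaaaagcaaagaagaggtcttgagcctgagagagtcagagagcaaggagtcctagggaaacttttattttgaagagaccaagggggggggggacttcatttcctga
Olig2, chr16:91225300-91225549, plus strand: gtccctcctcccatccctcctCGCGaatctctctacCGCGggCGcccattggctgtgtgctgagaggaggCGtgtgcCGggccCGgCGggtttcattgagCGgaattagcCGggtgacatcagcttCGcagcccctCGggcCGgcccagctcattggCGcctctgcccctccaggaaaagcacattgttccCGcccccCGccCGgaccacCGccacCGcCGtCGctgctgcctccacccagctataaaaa
Enpp6, chr8:46986637-46986886, plus strand: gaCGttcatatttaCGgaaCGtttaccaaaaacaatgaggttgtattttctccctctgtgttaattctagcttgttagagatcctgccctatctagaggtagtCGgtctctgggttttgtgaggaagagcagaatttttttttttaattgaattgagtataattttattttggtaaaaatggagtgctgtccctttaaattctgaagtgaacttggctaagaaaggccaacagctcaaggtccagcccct
Olig2 had 22 CG dinucleotides in this window and so had Ptprz1, Cspg4 had 12, and Pdgfra and Enpp6 had 4 each. The median over the 32851 promoters of the table was 6, and 85.2% of them had fewer than 22 while 37.8% had fewer than 4. Ordered by log2 fold change from the smallest to the largest, these 5 genes were Olig2 (22 CG), Cspg4 (12), Pdgfra (4), Ptprz1 (22) and Enpp6 (4). A relation between the number of CG and the size of the rise was not tested, as the remaining genes of the 10 have no window here. The motif CANNTG, the E-box that bHLH factors such as OLIG2 can bind, occurred once in the Pdgfra window and in none of the other 4, whereas 66.2% of all windows hold it. The SOX-type motif ACAATG occurred once each in Olig2 and Enpp6 (10.7% of all windows), and ACAAAG in none of the 5 (16.5% of all windows). Both strands were searched, CANNTG reads the same on both, and the motifs do not overlap one another in these windows.

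Pdgfra, Cspg4 and Ptprz1 encode proteins of the precursor surface, and they rose between 1.74-fold and 2.53-fold. Pdgfra (ENSMUSG00000029231, chromosome 5, 75312953 to 75358876, plus strand), the PDGF-A receptor, was at 40.0 and 39.7 CPM in Ezh2 f/f and at 72.9 and 75.5 CPM in Ezh2 cKO. The libraries of a group lay close together (SD 0.238 and 1.81 CPM) beside the distance between the groups, and the log2 fold change was 0.90 (SE 0.09, adjusted p = 8.43e-07 in edgeR). Pdgfra is also a marker of perivascular fibroblasts, for which Col1a1 was at 12.5 and 9.63 FPKM in Ezh2 f/f, against 10.7 and 10.4 in Ezh2 cKO. Over the 6 fibroblast genes listed the summed FPKM was 35.3 and 30.1, then 33.1 and 30.5, with 1 higher (Dcn, log2 fold change 0.73) and 2 lower, so the summed level of the list overlapped between the groups. Cspg4 (ENSMUSG00000032911, chromosome 9, 56772317 to 56807154, plus strand), which encodes the proteoglycan NG2, was at 24.9 and 22.5 CPM in Ezh2 f/f and at 44.2 and 38.1 CPM in Ezh2 cKO. The groups did not overlap, and the log2 fold change was 0.80 (SE 0.12, adjusted p = 3.70e-05). NG2 is also made by pericytes, whose 6 listed genes summed to 62.1 and 67.9 FPKM in Ezh2 f/f and to 112 and 99.5 in Ezh2 cKO, with Rgs5 higher (1.47), Pdgfrb lower (-0.55) and Kcnj8 at 0.21 (adjusted p = 0.320). The part of pericyte RNA in the rise of Cspg4 was not tested. Ptprz1 (ENSMUSG00000068748, chromosome 6, 22875501 to 23052915, plus strand) encodes a receptor-type phosphatase that binds pleiotrophin and is also made by astrocytes and radial glia. It was at 65.9 and 61.2 CPM in Ezh2 f/f and at 155 and 166 CPM in Ezh2 cKO, without overlap, and its log2 fold change of 1.34 (SE 0.10, adjusted p = 2.92e-08) was the largest of the 3. Of the astrocyte markers listed, 10 of 12 were higher and 0 lower, and the part of astrocyte RNA in the rise of Ptprz1 was not tested.

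The 4 transcription factor genes rose with log2 fold changes from 0.61 to 1.97, and these bounds belong to Olig2 and Olig1, which lie 41094 bases apart on chromosome 16. Olig1 (ENSMUSG00000046160, 91066660 to 91068821, plus strand) was at 43.1 and 41.2 CPM in Ezh2 f/f and at 181 and 149 CPM in Ezh2 cKO. Its log2 fold change was 1.97 (SE 0.11, adjusted p = 2.92e-09), and 6.91% of the genes tested had a larger one. Olig2 (ENSMUSG00000039830, 91022345 to 91025565, plus strand) was at 45.7 and 45.3 CPM in Ezh2 f/f, slightly above Olig1 on this scale, and reached 73.2 and 65.8 in Ezh2 cKO. The groups did not overlap, but the log2 fold change of 0.61 (SE 0.09, adjusted p = 5.12e-05) was the smallest of the 10, and 29.1% of all genes tested had a larger one. Sox10 (ENSMUSG00000033006, chromosome 15, 79039108 to 79049440, minus strand), whose product keeps the lineage's identity and works with MYRF on myelin genes, was at 21.5 and 23.5 CPM in Ezh2 f/f and at 58.5 and 47.7 CPM in Ezh2 cKO. Its log2 fold change was 1.24 (SE 0.12, adjusted p = 6.43e-07), and the spread between the Ezh2 cKO libraries (SD 7.64 CPM) was small beside the difference between the means, 22.5 and 53.1 CPM. Sox10 is also made by Schwann cells, for which the defining gene Foxd3 was at or near 0 (at most 0.0246 FPKM in any library) and Prx, the only gene of their list that was tested, was not called (log2 fold change -0.54, adjusted p = 0.105). Myrf (ENSMUSG00000036098, chromosome 19, 10185636 to 10218112, minus strand), the factor that starts myelin gene expression, was at 3.51 and 5.98 CPM in Ezh2 f/f and at 18.3 and 18.0 CPM in Ezh2 cKO. The Ezh2 f/f libraries differed by more than the Ezh2 cKO libraries did (SD 1.75 and 0.221 CPM), and the log2 fold change was 1.94 (SE 0.21, adjusted p = 1.80e-06). On the log2(FPKM + 1) scale in limma, which shrinks changes of low genes, Myrf was at 1.05.

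The genes for the committed stage went from low or barely detected to levels like those of the transcription factors, apart from Enpp6, which stayed low. Gpr17 (ENSMUSG00000052229, chromosome 18, 32076050 to 32082689, minus strand) encodes a G protein-coupled receptor that is transient in committed precursors and holds back their maturation. It was at 7.32 and 12.2 CPM in Ezh2 f/f and at 173 and 156 CPM in Ezh2 cKO, giving a log2 fold change of 4.08 (SE 0.17, adjusted p = 2.76e-10) that 0.667% of the genes tested exceeded. Gpr17 lies wholly within Lims2, a gene on the opposite strand that is itself listed among committed cell genes below. The strand setting of the counting is not stated, and only whole gene intervals were compared, not exons. Whether reads of one gene were counted for the other was therefore not tested. Lims2 had 81 and 77 counts in Ezh2 f/f, against 456 and 420 in Ezh2 cKO. Gpr17 had 125 and 192, against 3056 and 2711, several times the counts of Lims2 in Ezh2 cKO. Bcas1 (ENSMUSG00000013523, chromosome 2, 170188911 to 170269765, minus strand), which marks cells that are beginning to myelinate, was at 3.75 and 5.03 CPM in Ezh2 f/f and at 96.1 and 85.7 CPM in Ezh2 cKO. Its log2 fold change was 4.38 (SE 0.14, adjusted p = 3.40e-11), the smallest p of the 10 genes. Bcas1 shares bases with the antisense genes Bcas1os1 and Bcas1os2, which had at most 9 counts in any library. Enpp6 (ENSMUSG00000038173, chromosome 8, 47439922 to 47549797, plus strand), a choline phosphodiesterase of newly formed oligodendrocytes, had 6 and 3 counts in Ezh2 f/f, against 135 in each Ezh2 cKO library. In CPM these were 0.351 and 0.191, then 7.66 and 7.79, and the log2 fold change was 4.78 (SE 0.35, adjusted p = 3.36e-08). From the summed counts of 9 and 270 the fold was 28.1, with an exact 95% interval of 14.6 to 62.2 that covers counting error only. Enpp6 was the only one of the 10 that would not have passed the filter on low counts from the Ezh2 f/f libraries alone; the other 9 would have. In limma on log2(FPKM + 1) its value was 1.10. Of the other overlapping genes, Mir7025 and Gm42803 (with Pdgfra), Gm15966 (with Olig1) and 4930579M01Rik (with Enpp6) had at most 2 counts in any library.

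**Figure D2:**
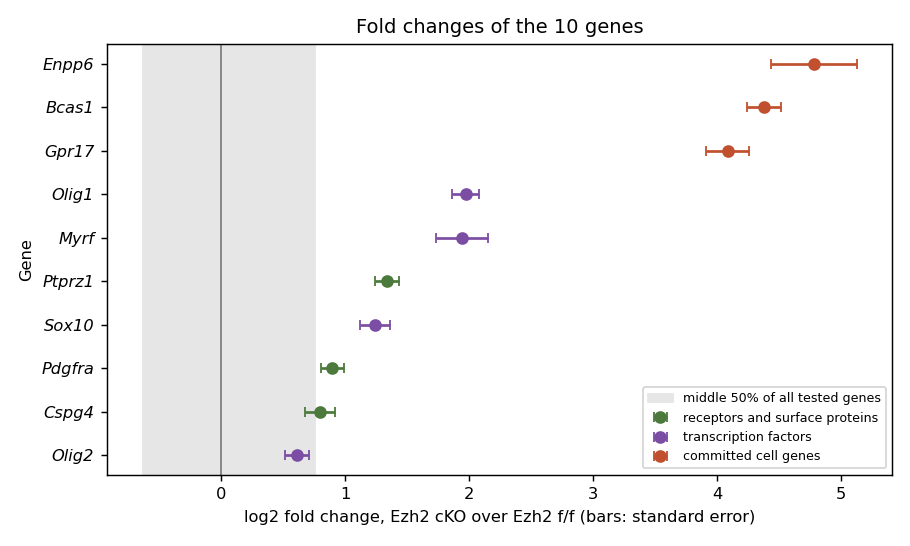
Log2 fold change of each of the 10 genes in edgeR, Ezh2 cKO over Ezh2 f/f, ordered by size and coloured by role, with bars for the standard error and a grey band for the middle 50% of all genes tested (-0.64 to 0.76). Olig2 at 0.61 lies within the band, the other 9 genes lie above it, and Gpr17, Bcas1 and Enpp6 stand apart from the rest at 4.08 and more.

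Because FPKM divides by gene length, it was used to order the genes by level within a group. In Ezh2 f/f the order of mean FPKM was Olig1 (18.9), Olig2 (17.4), Sox10 (7.16), Ptprz1 (4.33), Pdgfra (3.86), Cspg4 (1.93), Gpr17 (1.82), Bcas1 (1.13), Myrf (0.537) and Enpp6 (0.0411). The ranges of the 2 libraries overlapped for 1 pair of neighbours, Cspg4 and Gpr17, and for no other. In Ezh2 cKO the order was Olig1 (78.4), Gpr17 (32.6), Olig2 (28.2), Bcas1 (24.7), Sox10 (17.9), Ptprz1 (11.6), Pdgfra (7.61), Cspg4 (3.54), Myrf (2.18) and Enpp6 (1.24), and no neighbours overlapped. Gpr17, which lay beside Cspg4 in Ezh2 f/f, thus stood between Olig1 and Olig2 in Ezh2 cKO, and Bcas1 moved from below the precursor genes to a level between Olig2 and Sox10.

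A ratio of 2 genes within a library does not depend on the scaling between libraries, so each gene was set against Olig2, which is present at all stages of the lineage. Which cells the Olig2 RNA of these bulk libraries came from was not tested, so the ratios need not describe this lineage alone. As log2 ratios of FPKM, Gpr17 to Olig2 was at -3.68 and -2.93 in Ezh2 f/f and at 0.21 in both Ezh2 cKO libraries, a difference of 3.51. Bcas1 to Olig2 was at -4.18 and -3.75, then -0.18 and -0.20, a difference of 3.78. Enpp6 to Olig2 differed by 4.29 and Myrf to Olig2 by 1.38. These ratios of committed-stage genes did not overlap between the groups. Olig1 to Olig2 was at 0.14 and 0.09 in Ezh2 f/f and at 1.53 and 1.41 in Ezh2 cKO, a difference of 1.35, so that a mean ratio of 1.08 became one of 2.77. Smaller differences were seen for Ptprz1 (0.73), Sox10 (0.62), Pdgfra (0.29) and Cspg4 (0.18). The sum of Gpr17, Enpp6, Bcas1 and Myrf over the sum of Pdgfra and Cspg4, a ratio of committed to precursor transcripts, was at -1.08 and -0.41 in Ezh2 f/f and at 2.50 and 2.39 in Ezh2 cKO on the log2 scale. The difference of 3.19 moved the mean ratio from 0.613 to 5.45. As Olig2 rose least of the 10, the choice of Olig2 as the reference fixes the direction of the 9 ratios to it, and their sizes are a description. The direction of the committed to precursor ratio likewise follows from the fold changes given above, in genes chosen with earlier results known. In each of the 10 ratios both Ezh2 cKO libraries lay above both Ezh2 f/f libraries, and the exact two-sided permutation p was 0.333, the smallest that 2 libraries against 2 can give, so p < 0.05 was out of reach.

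**Figure D3:**
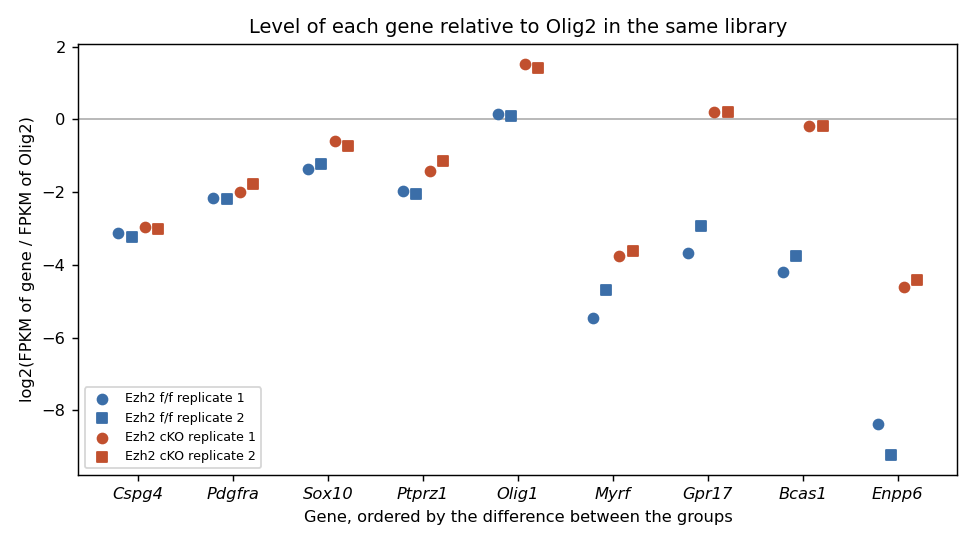
Log2 ratio of each gene's FPKM to that of Olig2 in the same library, with Ezh2 f/f in blue and Ezh2 cKO in red, circles for replicate 1 and squares for replicate 2, ordered from the smallest to the largest difference between the groups. Cspg4 and Pdgfra differ by 0.18 and 0.29, whereas Gpr17, Bcas1 and Enpp6 differ by 3.51 to 4.29, and Gpr17 passes from below to above the level of Olig2 (line at 0).

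The other genes of the lineage were described from 5 lists of 51 genes in all, of which 31 were higher, 12 lower and 8 not called, with a median log2 fold change of 0.59, beside 34.7% higher and 33.6% lower over all genes tested. Of the 31, Pdgfd, Neu4, Zfp488 and Casr passed the filter on low counts only through the Ezh2 cKO libraries, where they are high, and of the 47 that pass it in Ezh2 f/f alone 27 were higher. Among 9 genes for PDGF ligands and for ligands and partners of PTPRZ1, 6 were higher, 2 lower and 1 not called (median 0.99). Pdgfd is 1 of these 6, and of the 8 that pass the filter in Ezh2 f/f alone 5 were higher. Pdgfa, the main ligand of PDGFRα on precursors, was at 33.0 and 30.5 CPM in Ezh2 f/f, against 37.5 and 38.6 in Ezh2 cKO (log2 fold change 0.26, SE 0.11, adjusted p = 0.0416). This call did not hold in 7 of 12 alternatives (adjusted p up to 0.206), among them those that left out Ezh2 f/f replicate 2 or either Ezh2 cKO replicate. Pdgfb rose by more (1.83, SE 0.11), Pdgfc was not called (-0.27, SE 0.21, adjusted p = 0.265), and Pdgfd went from 2 counts in each Ezh2 f/f library to 27 and 25 in Ezh2 cKO. From its summed counts of 4 and 52 the fold was 12.2, with an exact 95% counting interval of 4.49 to 46.4. Of the ligands of PTPRZ1, Ptn (pleiotrophin) rose from 215 and 238 CPM to 447 and 451 (0.99, SE 0.09) while Mdk (midkine) fell from 59.7 and 66.4 to 38.8 and 33.0 (-0.81, SE 0.11). Of its cell surface and matrix partners, Cntn1 (2.43, SE 0.10) and Tnr (1.24, SE 0.10) rose, and Tnc fell (-0.82, SE 0.09). Ligands of the same receptor therefore went in different directions.

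Of 12 other precursor genes, 10 were higher and 2 lower (median 0.92). Neu4, which encodes a sialidase, had 7 counts in each Ezh2 f/f library and 242 and 265 in Ezh2 cKO (log2 fold change 5.06, SE 0.27; 34.0-fold from summed counts, exact 95% counting interval 20.1 to 62.6), and C1ql1 went from 2.81 and 3.75 CPM to 23.0 and 18.5 (2.66, SE 0.20). The 2 lower ones were Cacng4 (-1.16, SE 0.10), a regulatory subunit of AMPA receptors, and the matrix proteoglycan gene Vcan (-0.31, SE 0.10, adjusted p = 0.0178), whose call was lost in 6 of 12 alternatives (adjusted p up to 0.224), including those that left out Ezh2 f/f replicate 1 or either Ezh2 cKO replicate. Of 12 other genes of committed and premyelinating cells, 9 were higher, 2 lower and 1 not called (median 0.84). Lims2, with the overlap described above, was at 2.38 (SE 0.16). Casr had 0 and 4 counts in Ezh2 f/f, against 15 and 12 in Ezh2 cKO (2.59, SE 0.79, adjusted p = 0.00985), a call lost in 4 of 9 alternatives, and its value was 1.57 without Ezh2 f/f replicate 1 and 6.75 when replicate 2 was left out, where the remaining library has 0 counts. Cemip2 fell (-1.52, SE 0.13), as did the kinase gene Fyn (-0.64, SE 0.08). The rise was therefore not shared by all genes listed for these stages.

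The lists of transcription factors besides the 4 above had called genes in both directions, as all genes tested did (34.7% higher and 33.6% lower). Of 11 factors that promote the lineage, 3 were higher, 3 lower and 5 not called (median -0.22). Zfp488 went from 6 and 3 counts to 45 and 55 (log2 fold change 3.35, SE 0.44). Nkx2-2 was at 1.35 and 3.12 CPM in Ezh2 f/f, against 4.82 and 5.08 in Ezh2 cKO (1.16, SE 0.32, adjusted p = 0.00544), but was not called without Ezh2 cKO replicate 1 (1.19, adjusted p = 0.0532) or replicate 2 (1.12, adjusted p = 0.0643), and was at 0.66 without Ezh2 f/f replicate 1 and at 1.86 when replicate 2 was left out. Chd7, a chromatin remodeller, was lower (-0.98, SE 0.18). Tcf7l2 had 88 and 1457 counts in Ezh2 f/f, against 60 and 75 in Ezh2 cKO, so that its log2 fold change of -3.65 (SE 0.84, adjusted p = 0.00144) rests on 1 library. Without Ezh2 f/f replicate 2 it was -0.43 (adjusted p = 0.158), and without Ezh2 cKO replicate 1 or 2 it was -3.49 or -3.83, no longer called (adjusted p = 0.0710 and 0.0537). In that same library Gpr17, Bcas1 and Enpp6 summed to 3.59 FPKM, against 2.39 in the other Ezh2 f/f library, and Myrf was at 0.675 FPKM, against 0.400. Without it all 10 genes were still called higher.

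Of 7 factors that hold back differentiation, 3 were higher, 3 lower and 1 not called (median -0.21). Sox11, a factor of progenitors and immature neurons, fell from 414 and 376 CPM to 48.8 and 50.4 (-2.99, SE 0.10). Sox6 rose (0.63, SE 0.14). Hes5, a Notch target gene, was at 6.85 and 8.46 CPM in Ezh2 f/f, against 14.6 and 10.6 in Ezh2 cKO (0.72, SE 0.20, adjusted p = 0.00485), and at 0.47 without Ezh2 cKO replicate 1 (adjusted p = 0.108). Id4 had 372 and 813 counts in Ezh2 f/f, against 369 and 445 in Ezh2 cKO, groups that overlap. Its value of -0.65 (SE 0.27, adjusted p = 0.0431) became 0.08 (adjusted p = 0.653) without Ezh2 f/f replicate 2 and -1.15 when replicate 1 was left out, and it was not called without either Ezh2 cKO replicate (adjusted p = 0.322 and 0.136).

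**Figure D4:**
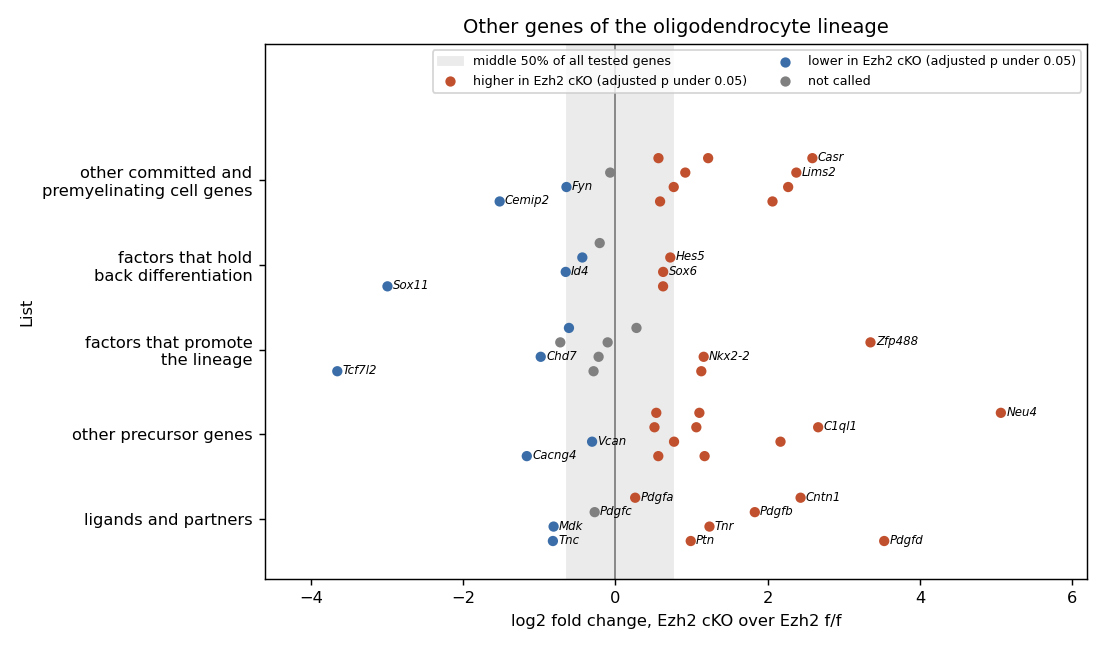
Log2 fold change in edgeR (Ezh2 cKO over Ezh2 f/f) of 51 other genes of the lineage by list, red where higher, blue where lower and grey where not called at an adjusted p of 0.05, over a band for the middle 50% of all genes tested; Pdgfd is drawn at its fitted value. The ligand, precursor and committed lists lean to the right (medians 0.99, 0.92 and 0.84), and both lists of factors lie around 0 (medians -0.22 and -0.21).

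Beyond the lineage's early stages, 9 of 10 tested myelin genes were higher and 0 lower, of which 2 (Mobp and Aspa) were tested only through the Ezh2 cKO libraries, and the 12 listed summed to 23.3 and 24.6 FPKM in Ezh2 f/f, against 166 and 147 in Ezh2 cKO. Mbp, which encodes myelin basic protein, had a log2 fold change of 3.44, below those of Gpr17 and Bcas1, and Mog, which encodes a glycoprotein of the outer myelin surface, one of 0.62. Markers of other cell types moved as well. Microglia genes were higher in 10 of 10, 2 of them tested only through the Ezh2 cKO libraries, with a summed FPKM of 60.0 and 59.5 in Ezh2 f/f, against 168 and 147 in Ezh2 cKO. Of the 12 neuron genes 9 were higher and 1 lower. Their sum was 2288 and 2367 FPKM in Ezh2 f/f, then 2373 and 2365, and most of it was Tubb3, the lower one, at 1859 and 1897, then 1223 and 1207. Without Tubb3, which was singled out after its values were seen, the other 11 summed to 428 and 470 FPKM in Ezh2 f/f, then 1150 and 1158. Endothelial genes (3 of 8 higher, 1 of these tested only through Ezh2 cKO, and 1 lower) summed to 98.6 to 116 FPKM over the 4 libraries. Genes of neural progenitors (1 higher, 7 lower of 8) fell from sums of 88.4 and 89.8 to 57.1 and 55.5 FPKM, and those of cycling cells (0 higher, 6 lower of 8) went from 50.5 and 44.1 to 35.1 and 34.0. The part of any of these in the rise of the 10 genes was not tested.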

How the data were processed

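RNA-seq libraries (2 Ezh2 f/f and 2 Ezh2 cKO) were analysed from the tables the authors deposited. For 29224 genes these give read counts without normalization, and FPKM that the authors computed from them; FPKM here equals counts scaled to a length per gene and to the library total. The submitters' processing notes name Bowtie2 2.2.3, TopHat2 2.0.12, HTSeq 0.6.0 and mm9, with no role or order, and the strand setting is not stated. Positions are printed as deposited. Of 28799 gene identifiers found in GENCODE M21 (GRCm38), 28218 have other coordinates there, so the build of the deposited positions was not settled and nothing was converted. Columns with the authors' own comparison (ratios and p-values) were not used.

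Fold changes, standard errors and p-values come from edgeR 4.0.16 in R 4.3.3 (filterByExpr with a minimum count of 10, which left 16793 genes, TMM factors 0.967 to 1.04, quasi-likelihood test with the group as the only term, biological coefficient of variation 0.0953). The threshold for a call was an adjusted p of 0.05 (Benjamini-Hochberg over all genes tested). Within a group the counts varied beyond sampling noise (chi-square per degree of freedom 9.76 for Ezh2 f/f, 6.13 for Ezh2 cKO). Ratios between genes used an exact permutation test over libraries. The alternatives were DESeq2 1.42.0, DESeq2 size factors or upper quartile scaling in edgeR, no filter, at least 50 counts on average, limma 3.58.1 on log2(FPKM + 1) and log2(FPKM + 0.1) with an FPKM of at least 1 in 2 libraries, a replicate block, and each library left out; the committed to precursor ratio was also taken on counts and without Myrf or Bcas1. The scripts were tested on simulated data. Figures and summaries used Python 3.11.15.

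The 10 genes and all lists were chosen with earlier results of these data known. The genes named are the 10, Ezh2, every ligand and partner, the 2 genes with the largest and the 2 with the smallest log2 fold change of each other lineage list, defining markers of cell types (some are not reported here), and genes that overlap one of the 10 on the deposited positions.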

Additional observations from a re-analysis of the deposited data

How the results depend on the processing

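The 10 genes were all called higher, with 0 lower, under each of the 12 alternatives, and none of them lost its own call (largest adjusted p 0.00536, Olig2 without Ezh2 cKO replicate 1). Enpp6 and Myrf moved by over 1.5 times in limma on log2(FPKM + 1), to 1.10 and 1.05. Leaving out each library in turn, the log2 fold change ranged up to 5.28 for Enpp6 and from 0.53 for Olig2. Over all 12 alternatives Ezh2 stayed between -1.29 and -0.72, the latter in limma on log2(FPKM + 1). The committed to precursor difference was 2.85 to 3.53 with each library left out, 3.05 on counts, 3.37 without Myrf and 3.00 without Bcas1. It was not taken without Gpr17, the highest of its committed genes in Ezh2 cKO, or without Enpp6.

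Of the 51 other lineage genes, 12 were lower, but 7 in limma on log2(FPKM + 1) and 7 on log2(FPKM + 0.1); the cause was not tested. With each library left out, 24 to 31 were higher and 8 to 11 lower, and Id4 ranged from -1.15 to 0.082. Over all genes, the higher ones numbered 4677 to 5680.

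The replicate numbers are not stated to pair the libraries, and with 2 pairs the check is only a hint: deviations from the group means correlated with 0.218 across 12918 genes. In edgeR with the replicate block, all 10 genes were higher, as were 30 of the other lineage genes, with 12 lower; over all genes, 5795 were higher and 5599 lower. Of the genes named, Pdgfa lost its call (0.26, adjusted p = 0.0756).

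With 2 libraries a group, no single value can pass 0.05 by permutation, and p-values rest on the spread shared across genes. Depth limits Enpp6, Pdgfd, Zfp488 and Casr, which had 6 or fewer counts in each Ezh2 f/f library, so their folds are imprecise.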
